A study of Mus musculus with 9 samples.

Results

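The chemokine genes described here are 10 that myeloid cells are known to make, namely Ccl2, Ccl3, Ccl4, Ccl5, Ccl6, Ccl9, Ccl17, Ccl22, Ccl24 and Cxcl2. They were found by name among the probes of the array, as 10 of 36413 gene or region names, and all 10 were among the 23020 that were kept for testing. RNA was measured on 9 one-colour Agilent arrays, with 3 arrays in each of 3 groups. The Drosha-deleted group came from female mice with the alleles Drosha fl/fl and Gt(ROSA)26Sor CreERT2, the Dicer-deleted group from female mice with Dicer fl/fl and the same Cre, and the control group from female mice with Gt(ROSA)26Sor CreERT2 alone. All 3 groups therefore carried the tamoxifen-activated Cre, which is driven from the widely expressed Rosa26 locus. All cells were LSK cells, the lineage-negative, Sca1-positive and cKit-positive bone marrow fraction that is enriched for blood stem cells and early progenitors. They were kept for 72 h with 250 nM 4OH-tamoxifen, 10 ng/mL IL-3, 10 ng/mL IL-6, 50 ng/mL stem cell factor and 10% serum, at 50000 cells per well. The ages of the mice were not stated. Whether the 3 repeats of a group were separate animals is not stated either, so p-values here reflect only how these samples vary.

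Chemokines are small secreted proteins that bind G protein-coupled receptors and guide the movement of leukocytes along a gradient. In bone marrow and tissues, macrophages, dendritic cells, granulocytes and their precursors make many of them, some constantly and some only after a signal such as a microbial product or a cytokine. Inflammatory signals that act through NF-kB drive genes such as Ccl2, Ccl3, Ccl4, Ccl5 and Cxcl2, while IL-4 and IL-13, which act through the transcription factor STAT6, drive Ccl17, Ccl22 and Ccl24 in macrophages and dendritic cells. Drosha and Dicer act one after the other in the making of most microRNAs, and a direct comparison of both deletions asks where loss of the first enzyme differs from loss of the second.

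The genes sit in a few clusters. On mm9, the build on which the array's probes were placed, the probes of Ccl22 (chr8:97274709-97274768, plus strand) and Ccl17 (chr8:97335770-97335829, plus strand) lay 61.0 kb apart. The probes of Ccl5, Ccl9, Ccl6, Ccl3 and Ccl4 followed each other on chromosome 11, with gaps between neighbours of 48.9, 13.7, 59.3 and 16.6 kb. Ccl2 lay on the same chromosome at position 81850650, 1489 kb from Ccl5, and Cxcl2 (chr5:91334534-91334593) and Ccl24 (chr5:136046667-136046726) lay far apart on chromosome 5. The accession of each of the 10 probes led to the same symbol in the RefSeq gene table. Whether a probe lies in a coding exon or a UTR was not analysed here.

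The promoters of Ccl17 and Ccl22 are shown because these genes lie in one cluster, encode the ligands of CCR4 and correlated at 0.87 over the 9 columns. Both sequences are the 250 bases before the start site, from RefSeq on GRCm38.p6, on the plus strand, and promoter entries were matched for 6 of the 10 genes. Capitals mark matches to TTC and GAA with 4 bases between them, the spacing that STAT6 favours, or to GGG and CC with 5 bases between them on either strand, a loose form of the NF-kB site.
Ccl17, chr8:94810203-94810452: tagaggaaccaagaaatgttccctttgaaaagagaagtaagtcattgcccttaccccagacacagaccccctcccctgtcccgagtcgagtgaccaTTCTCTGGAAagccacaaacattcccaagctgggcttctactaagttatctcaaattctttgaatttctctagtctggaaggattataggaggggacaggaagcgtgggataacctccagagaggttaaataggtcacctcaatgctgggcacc
Ccl22, chr8:94745434-94745683: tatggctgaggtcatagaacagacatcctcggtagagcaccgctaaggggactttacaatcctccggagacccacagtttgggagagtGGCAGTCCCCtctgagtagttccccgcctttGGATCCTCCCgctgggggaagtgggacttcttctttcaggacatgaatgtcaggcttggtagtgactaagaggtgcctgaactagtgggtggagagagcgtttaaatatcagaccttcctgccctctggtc
In the Ccl17 window the STAT letters TTCTCTGGAA began 154 bases before the start, and no NF-kB letters were found. In the Ccl22 window GGCAGTCCCC began 162 bases and GGATCCTCCC 131 bases before the start, both as matches on the opposite strand. Among the 6 promoters, 1 held the STAT letters and 3 (Ccl9, Ccl22 and Cxcl2) held the NF-kB letters. Of 32851 promoters of that length in the table, 5.85% held the STAT letters and 45.8% the NF-kB letters, and a match is only a description of the letters.

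The deleted genes were low where the labels said so. Drosha, named Rnasen on the array, lay between 8.81 and 9.32 on the log2 scale in the Drosha-deleted samples and between 11.85 and 12.16 elsewhere, and Dicer1 lay between 8.97 and 9.18 in the Dicer-deleted samples and between 9.92 and 10.80 elsewhere. The LSK markers Kit, Ly6a and Cd34 were well above background on all arrays. After the culture the cells also carried RNA of maturing myeloid cells: 6 neutrophil marker genes had a mean log2 level between 14.97 and 16.89 over the 9 columns. Control columns 2 and 3 of the authors' table stood apart: they correlated at 0.994 with each other and at 0.973 to 0.982 with the other 7 columns, which correlated at 0.988 to 0.996 among themselves. With its own scanner file, the column of control replicate 2 had a correlation of only 0.770, where the other 8 columns had 0.974 to 0.985. It correlated at 0.974 with the scanner file of another array, so whether this column is a separate control sample cannot be told from the files. By the slide codes, the file of control replicate 3 lay on a slide of its own and the other 8 files on another. Differences of the 10 genes from control are therefore given with all 9 columns and again with control replicate 1 alone, which is then assumed to vary like the other groups, while the comparison of the deletions uses none of the columns that stood apart in its means. All levels are the authors' normalised log2 values, and since probes differ in brightness, no gene's level is set against another's.

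Across the 10 genes, none passed an adjusted p of 0.05 in any of the 3 comparisons (limma, Benjamini-Hochberg over 23020 genes). In Drosha-deleted against Dicer-deleted cells 3 of the 10 had an unadjusted p below 0.05, all 3 higher in Drosha-deleted cells, namely Ccl17, Ccl22 and Ccl24, although Ccl22 was kept for testing only through the Drosha-deleted group and its p is no support. Against control, 2 of 10 had an unadjusted p below 0.05 in Drosha-deleted cells (Ccl17 and Ccl24) and 3 of 10 in Dicer-deleted cells (Ccl2, Ccl17 and, with the same limit, Ccl22). Of all 23020 genes, 0.0565% were called between the deletions, 0.169% in Drosha-deleted against control and 0.0174% in Dicer-deleted against control. In the same order, 5.66%, 26.9% and 21.9% (1304, 6194 and 5038 genes) had an unadjusted p below 0.05 in limma. Against control, 2 and 3 of the 10 are near these shares.

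**Figure D1:**
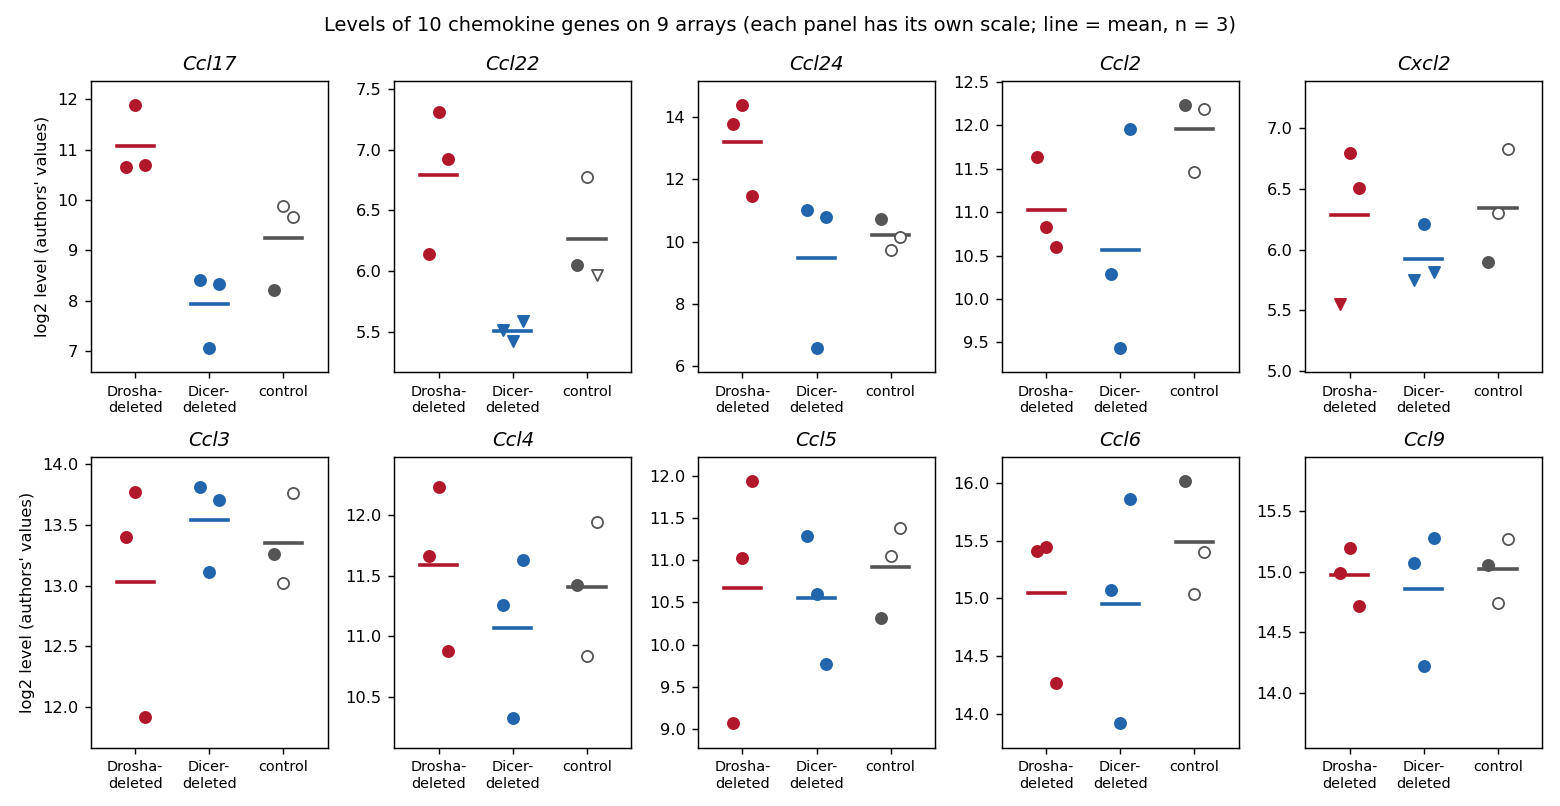
Authors' log2 level (vertical axis, a separate scale in each panel) of the 10 chemokine genes in Drosha-deleted, Dicer-deleted and control samples, with a point for each replicate and a line at the group mean (n = 3). Open symbols are control replicates 2 and 3, and triangles are arrays on which the probe was not well above background. Ccl17 and Ccl24 lie higher in all Drosha-deleted samples than in any other sample.

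Ccl17 (TARC) attracts T helper 2 cells and other cells with the receptor CCR4, and is made by dendritic cells and macrophages. Its log2 level was 10.66, 11.88 and 10.69 in Drosha-deleted replicates 1 to 3, 8.41, 7.06 and 8.34 in Dicer-deleted replicates, and 8.21, 9.88 and 9.65 in control replicates. Every Drosha-deleted sample was above every sample of the other groups, and the Dicer-deleted samples overlapped with control replicate 1. Drosha-deleted cells averaged 11.08 ± 0.70 and Dicer-deleted cells 7.94 ± 0.76 (SD, n = 3 each), a difference of 3.14 (SE 0.54, 8.82-fold, 95% interval 1.93 to 4.35). By size this was the third highest difference of 23020 genes and by p-value it ranked 36th, with an unadjusted p of 0.000246 and an adjusted p of 0.157 in limma. The difference lay between 2.70 and 3.38 with each of the 9 columns left out in turn, with adjusted p between 0.074 and 0.543. Over all 19 other ways of processing, the highest adjusted p in limma was 0.959.

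Against control, whose mean was 9.25 ± 0.90, Ccl17 differed by 1.83 in Drosha-deleted cells (SE 0.54, adjusted p = 0.114), and by 2.86 against control replicate 1 alone (adjusted p = 0.520). In Dicer-deleted cells it differed from control by −1.31 (adjusted p = 0.206), and from control replicate 1 alone by −0.28. Control replicate 1, at 8.21, was the lowest of the 3 controls. With control replicate 1 left out, only control replicates 2 and 3 remained, the columns that stood apart from the other 7. Against these the Dicer-deleted difference was −1.83 with an adjusted p of 0.026 in limma, in a fit that called 7020 of 23020 genes.

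Ccl22 (MDC) is the other ligand of CCR4, and its gene lies in the same cluster on chromosome 8 as Ccl17. The log2 level was 6.14, 7.31 and 6.93 in Drosha-deleted replicates, 5.52, 5.42 and 5.59 in Dicer-deleted replicates, and 6.05, 6.78 and 5.97 in control replicates. Its probe was not well above background on any Dicer-deleted array or on that of control replicate 3, so it was kept only through the Drosha-deleted group, where it is high. The background flag of control replicate 2 comes from the scanner file that its column did not match. All Dicer-deleted samples were below all other samples, while Drosha-deleted and control samples overlapped. The Ccl22 mean was 6.79 in Drosha-deleted, 5.51 in Dicer-deleted and 6.26 in control cells. Drosha-deleted cells were 1.29 above Dicer-deleted cells. Dicer-deleted cells differed by −0.76 from control and by −0.54 from control replicate 1 alone. As the Dicer-deleted signals were not well above background, the sizes of these differences are uncertain. Because of the way the probe was kept, these values are a description and no test of Ccl22 is read. The Drosha-deleted mean was 0.53 above control, 0.74 above control replicate 1 alone, 0.27 without Drosha-deleted replicate 2 and 0.86 without Drosha-deleted replicate 1.

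Ccl24 (eotaxin-2) attracts eosinophils through the receptor CCR3 and is made by alternatively activated macrophages. Its log2 level was 13.76, 14.36 and 11.47 in Drosha-deleted replicates, 11.01, 6.60 and 10.80 in Dicer-deleted replicates, and 10.72, 9.73 and 10.13 in control replicates. All 3 Drosha-deleted samples were above all other samples, although replicate 3, at 11.47, was close to Dicer-deleted replicate 1, at 11.01, and Dicer-deleted replicate 2 was far below the rest. The difference from control, 3.00 (SE 1.15, 8.01-fold, 95% interval 0.41 to 5.60), was the highest of all 23020 genes, with an adjusted p of 0.147 in limma. Against control replicate 1 alone it was 2.47 (adjusted p = 0.999). Between the deletions it was 3.73 (SE 1.15, 13.2-fold, unadjusted p = 0.0100, adjusted p = 0.602), the second highest of all genes. Without Dicer-deleted replicate 2 this difference was 2.29.

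In Dicer-deleted cells Ccl24 differed from control by −0.73 (adjusted p = 0.721), from control replicate 1 alone by −1.25, and by 0.71 without Dicer-deleted replicate 2. That sample was also the lowest of all 9 in the mean level of the neutrophil markers (14.97, against 16.46 and 16.78 in the other Dicer-deleted samples), of 7 monocyte and macrophage markers (8.42, against 9.41 and 9.64) and of 5 eosinophil markers (8.21, against 9.36 and 9.61). The mean level of the eosinophil markers lay between 9.25 and 9.87 in Drosha-deleted, 8.21 and 9.61 in Dicer-deleted and 9.06 and 9.35 in control samples, and none of these 5 genes was called in any comparison. In these bulk samples fewer cells of a type and less RNA per cell cannot be told apart, and the part of cell makeup in the Ccl24 values was not tested.

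Ccl2 (MCP-1), the main ligand of CCR2, draws monocytes out of the bone marrow. The log2 level was 11.64, 10.83 and 10.60 in Drosha-deleted replicates, 10.28, 9.44 and 11.95 in Dicer-deleted replicates, and 12.23, 11.46 and 12.19 in control replicates. The means of both deletions were below the control mean, yet the highest sample of each overlapped with the lowest control. The difference from control was −0.94 in Drosha-deleted cells (SE 0.57, adjusted p = 0.307) and −1.40 in Dicer-deleted cells (SE 0.57, 2.65-fold, unadjusted p = 0.0363, adjusted p = 0.205), and against control replicate 1 alone it was −1.21 and −1.67. Both comparisons use the same controls. Between the deletions the difference was 0.46 with a 95% interval of −0.83 to 1.76, and −0.10 without Dicer-deleted replicate 2.

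Ccl3 (MIP-1 alpha) and Ccl4 (MIP-1 beta) are neighbouring genes of inflammatory chemokines that attract monocytes and T cells. Ccl3 had log2 levels of 13.41, 13.77 and 11.92 in Drosha-deleted replicates, 13.81, 13.11 and 13.71 in Dicer-deleted replicates, and 13.26, 13.03 and 13.77 in control replicates. Apart from Drosha-deleted replicate 3, all samples lay between 13.03 and 13.81. It was the sole gene of the 10 with a lower mean in Drosha-deleted than in Dicer-deleted cells, a difference of −0.51 (95% interval −1.51 to 0.49), which was 0.05 without Drosha-deleted replicate 3.

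Ccl4 had log2 levels of 11.66, 12.23 and 10.88 in Drosha-deleted replicates, 11.25, 10.33 and 11.63 in Dicer-deleted replicates, and 11.43, 10.84 and 11.94 in control replicates. The 3 groups overlapped, and the difference between the deletions was 0.52 (95% interval −0.46 to 1.51, adjusted p = 0.999). Against control, Ccl3 differed by −0.32 and Ccl4 by 0.19 in Drosha-deleted cells, and by 0.19 and −0.33 in Dicer-deleted cells, with adjusted p between 0.659 and 0.813. Against control replicate 1 alone these differences were −0.23 and 0.17 with Drosha deleted, and 0.29 and −0.35 with Dicer deleted.

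Ccl5 (RANTES), which attracts T cells, monocytes and eosinophils, varied widely within groups. Its log2 level was 9.07, 11.02 and 11.94 in Drosha-deleted replicates, 11.29, 10.61 and 9.77 in Dicer-deleted replicates, and 10.32, 11.05 and 11.38 in control replicates. The lowest and the highest of the 9 values were both Drosha-deleted samples, and the SD in that group was 1.47. The differences were 0.12 between the deletions (95% interval −1.41 to 1.65), −0.24 with Drosha deleted and −0.36 with Dicer deleted against control. Against control replicate 1 alone, both differences from control were positive, at 0.36 and 0.24.

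Ccl6 and Ccl9 are genes of mouse chemokines, side by side among the chemokine genes of chromosome 11, that act through CCR1 and are made by myeloid cells without further stimulation. Ccl6 had log2 levels of 15.41, 15.45 and 14.27 in Drosha-deleted replicates, 15.08, 13.92 and 15.86 in Dicer-deleted replicates, and 16.02, 15.04 and 15.40 in control replicates. Ccl9 had 14.99, 15.20 and 14.72 in Drosha-deleted, 15.07, 14.22 and 15.28 in Dicer-deleted and 15.05, 14.75 and 15.27 in control replicates. Both genes were lowest in Dicer-deleted replicate 2, and the groups overlapped. Ccl9 had the narrowest interval of the 10: its difference between the deletions was 0.11 with a 95% interval of −0.50 to 0.73, and that of Drosha-deleted cells from control was −0.05 with −0.67 to 0.56. For Ccl6 the differences were 0.09 between the deletions, −0.44 with Drosha deleted and −0.53 with Dicer deleted against control (adjusted p = 0.999, 0.586 and 0.535). Against control replicate 1 alone, Ccl6 differed by −0.97 with Drosha deleted and −1.07 with Dicer deleted, and Ccl9 by −0.08 and −0.20.

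Cxcl2 (MIP-2), a CXCR2 ligand that attracts neutrophils, was dim. The log2 level was 5.55, 6.80 and 6.51 in Drosha-deleted replicates, 5.75, 6.21 and 5.82 in Dicer-deleted replicates, and 5.90, 6.30 and 6.83 in control replicates. The probe was well above background on 2 of 3 Drosha-deleted, 1 of 3 Dicer-deleted and all 3 control arrays, so it was kept through the control group. All 3 groups overlapped. The differences were 0.36 between the deletions (adjusted p = 0.999 in limma), and −0.06 with Drosha deleted and −0.42 with Dicer deleted against control. As the control group, through which Cxcl2 was kept, also had its highest mean (6.34), no test of Cxcl2 against control is read. Against control replicate 1 alone the differences from control were 0.39 with Drosha deleted and 0.03 with Dicer deleted. The background flag of control replicate 2 has the limit given for Ccl22.

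**Figure D2:**
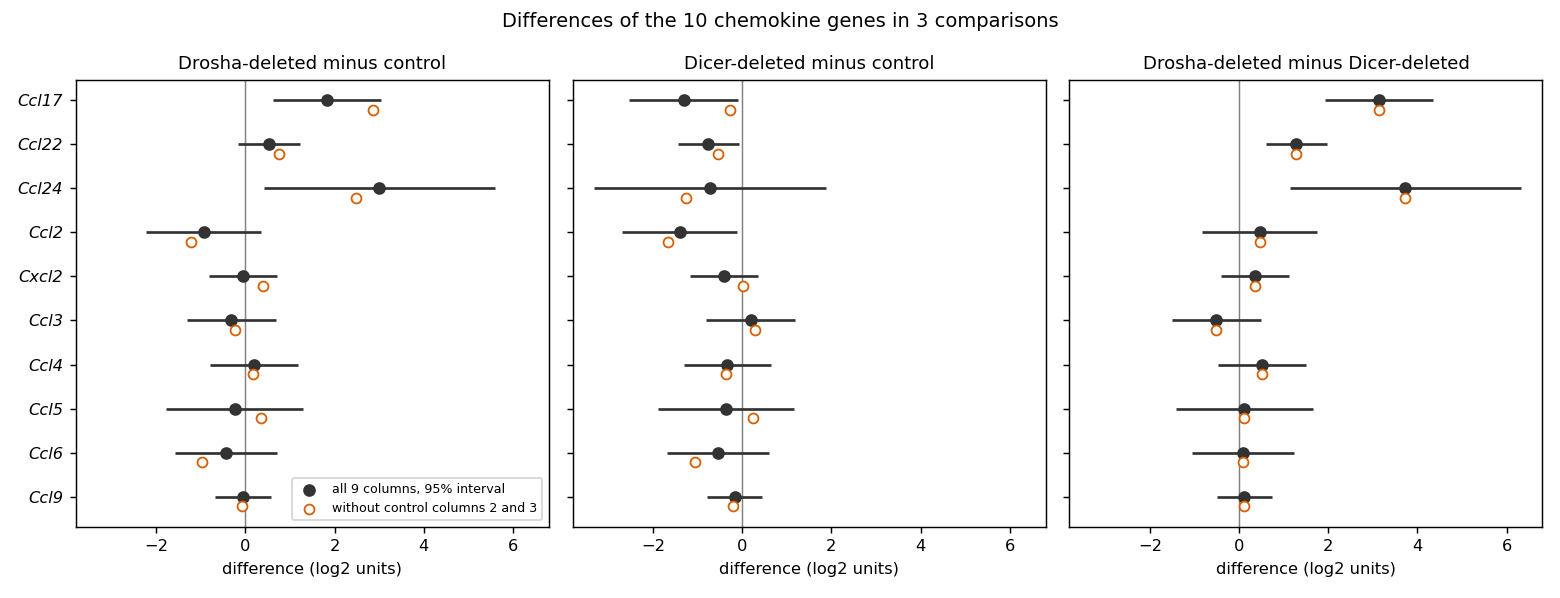
Differences of the 10 genes (horizontal axis, log2 units) in 3 comparisons. Filled points are the limma estimates from all 9 columns with 95% intervals, and open points leave out control replicates 2 and 3. Between the deletions, the intervals of Ccl17 and Ccl24 lie above 0, as does that of Ccl22, whose probe was not well above background on any Dicer-deleted array and was kept only through the Drosha-deleted group. The intervals of the other 7 genes include 0.

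Set side by side, 9 of the 10 genes had a higher mean in Drosha-deleted than in Dicer-deleted cells, with a median difference of 0.41, against 0.00 over all genes tested. This count leans on Dicer-deleted replicate 2. Without that sample the differences of Ccl2, Ccl6 and Ccl9 were −0.10, −0.43 and −0.20, while the rest of the 9 kept their sign. Between the same groups, 6 of 7 dendritic cell markers had a higher mean in Drosha-deleted cells, with a median difference of 0.91. They ranged from Siglech (0.12) and H2-Ab1 (0.20) to Itgax (0.98) and Ccr7 (1.21), while Zbtb46 was lower (−0.21). All 6 neutrophil markers also had a higher mean in Drosha-deleted cells, with a median of 0.57. The neutrophil result leans on Dicer-deleted replicate 2 as well, whose mean level of these markers was 14.97. The other Dicer-deleted samples, at 16.46 and 16.78, lay within the Drosha-deleted range of 16.28 to 16.89. Monocyte and macrophage markers mostly went the other way, with 2 higher and 5 lower of 7 and a median of −0.19. None of these markers was called, and their part in the chemokine values was not tested. The groups did not overlap for 3 genes, Ccl22 with its limit among them, all higher in Drosha-deleted cells, where 8.61% of all genes were higher and 6.79% lower without overlap. In Drosha-deleted against control cells 4 genes were higher and 6 lower, with a median of −0.05 (0.26 against control replicate 1 alone). There, 2 genes were higher without overlap and 0 lower, beside 12.6% and 10.5% of all genes. In Dicer-deleted against control cells 1 gene was higher and 9 lower, with a median of −0.48 (−0.32 against control replicate 1 alone). There, 0 genes were higher and 1 lower without overlap, beside 11.7% and 9.95% of all genes. With 10 genes, 1 gene in either direction is near these shares.

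Relative to each gene's own mean, the average of the 10 genes was 0.29, 0.94 and 0.05 in Drosha-deleted replicates 1 to 3, −0.20, −1.25 and −0.07 in Dicer-deleted replicates, and −0.02, −0.06 and 0.31 in control replicates. Drosha-deleted replicate 2 was highest and Dicer-deleted replicate 2 lowest, while the lowest Drosha-deleted sample lay below the highest control sample. The average is not scaled, so Ccl24 and Ccl17, which varied most around their means, weigh most in it. The median of the 10 was 0.18, 0.54 and 0.05 in Drosha-deleted replicates. It was −0.09, −0.90 and 0.06 in Dicer-deleted replicates, and −0.09, −0.00196 and 0.39 in control replicates.

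**Figure D3:**
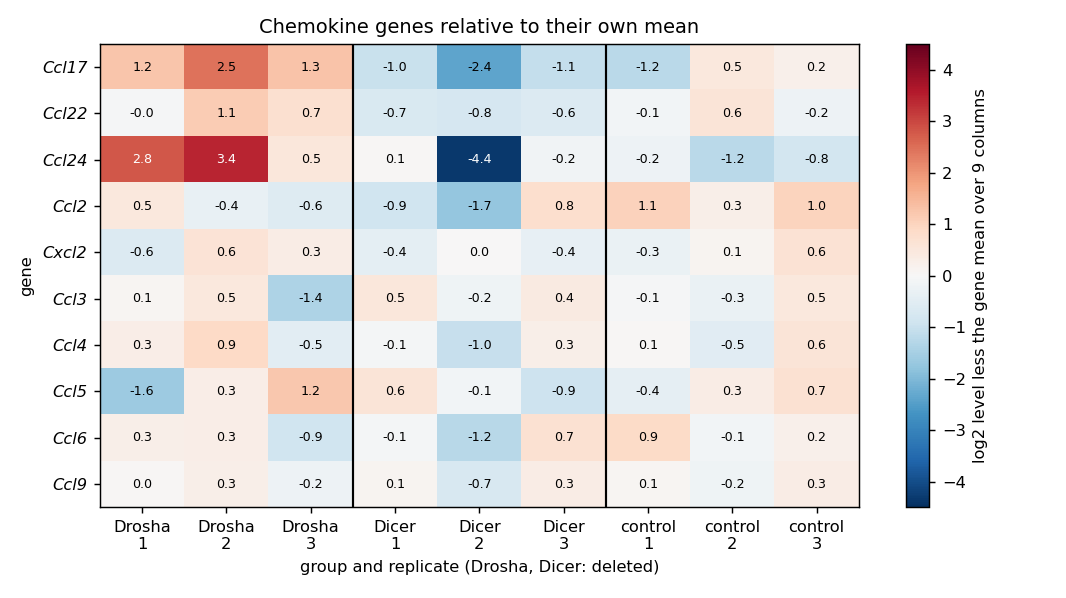
Log2 level less the gene's mean over the 9 columns (colour and printed value) for the 10 genes (rows) in the Drosha-deleted, Dicer-deleted and control samples (columns). Ccl17, Ccl22 and Ccl24 are at or above their mean in the Drosha-deleted samples, to within rounding for Ccl22 in replicate 1, and Dicer-deleted replicate 2 has the lowest Ccl24.

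Over the 9 columns, among the 45 pairs of the 10 genes, 32 correlated positively, with a median Pearson r of 0.27 and a range of −0.46 to 0.90. Ccl17 correlated with Ccl22 at 0.87 and with Ccl24 at 0.81. Ccl4 correlated with Ccl9 at 0.90, Ccl6 with Ccl9 at 0.86 and Ccl2 with Ccl6 at 0.84, while Ccl5 ran against Ccl6 (−0.46). Over the 7 columns without control replicates 2 and 3 the first 5 of these values were 0.90, 0.88, 0.89, 0.88 and 0.89. Ccl24 also correlated with Ccl4 at 0.76 (0.87 over the 7 columns), with Ccl9 at 0.64 and with Ccl22 at 0.57. These points share arrays, groups and the same normalisation, so the values only describe the table. The genes most like the average of the 10 over the 9 columns were Slc31a2, a copper transporter gene (r 0.98), Matk, a kinase gene (0.97), Batf3, a transcription factor of dendritic cells (0.95), Blvra, which encodes biliverdin reductase (0.94), and Irf4, a transcription factor of lymphoid and myeloid cells (0.94). As that average is not scaled, Ccl24 and Ccl17 weigh most in these correlations. Batf3 averaged 9.63 in Drosha-deleted, 8.66 in Dicer-deleted and 9.36 in control cells.

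Of 5 genes of receptors that these chemokines use, 4 were tested, all but Ccr4, and none was called. The probe of Ccr1 was well above background on 2 of 3 arrays of each deletion and on all 3 control arrays. It was kept only through the control group, where it is high, so its differences are a description with no test read. Ccr1 differed from control by −0.63 with Drosha deleted and −0.65 with Dicer deleted. These differences were −0.68 and −0.70 against control replicate 1 alone, and 0.30 and 0.26 with the normexp background correction of the scanner signals. The 4 receptors had a median difference of 0.16 between the deletions, −0.40 with Drosha deleted and −0.61 with Dicer deleted against control. Ccr3, well above background on 2 Dicer-deleted and 2 control arrays, was kept only through the Drosha-deleted group, where its mean was highest (6.23). With Ccr1 and Ccr3 among the 4, these medians only describe the values. Of 5 scavenging and atypical receptors 2 were tested, and Ackr1, which binds many chemokines without signalling, differed from control by −0.74 with Drosha deleted and −1.12 with Dicer deleted (adjusted p = 0.218 and 0.172), and from control replicate 1 alone by −0.44 and −0.83. None of 10 other chemokine receptors tested was called, with medians of 0.01, −0.16 and −0.38 in the same order.

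Of 28 other chemokines, 15 were tested and none was called, with medians of 0.17 between the deletions, −0.07 with Drosha deleted and −0.32 with Dicer deleted against control. Cxcl5, a neutrophil attractant, averaged 10.24 with Drosha deleted and 10.72 with Dicer deleted, against 11.85 in control cells (adjusted p = 0.084 and 0.168), and its differences from control replicate 1 alone were −1.21 and −0.73. Ppbp, a platelet chemokine gene, averaged 14.64 with Drosha deleted and 13.55 with Dicer deleted, against 14.93 in control cells, with differences of −0.57 and −1.66 from control replicate 1 alone. Ccl8 was 1.25 higher in Drosha-deleted than in Dicer-deleted cells (adjusted p = 0.743), with its probe well above background on 1 of 3 Dicer-deleted arrays.

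The 8 genes of STAT6 and alternative activation that were tested, Retnla among them, had a higher mean in Drosha-deleted than in Dicer-deleted cells, with a median difference of 1.08, and none was called. The count and the median lean on Dicer-deleted replicate 2, whose mean level over the 8 genes was 9.24, against 10.08 and 10.76 in replicates 1 and 3. Il4ra, for example, was 9.65 in that sample and 10.10 and 10.26 in the other Dicer-deleted samples, beside a Drosha-deleted mean of 10.12. Retnla, a secreted product of macrophages exposed to IL-4, had log2 levels of 11.20, 10.14 and 7.74 in Drosha-deleted replicates, 5.32, 5.26 and 6.73 in Dicer-deleted replicates, and 7.71, 7.52 and 5.18 in control replicates. Its probe was well above background on all 3 Drosha-deleted arrays, 1 of 3 Dicer-deleted arrays and 2 of 3 control arrays, so it was kept only through the Drosha-deleted group, and its difference of 3.92 between the deletions is a description with no test read. Chil3, a chitinase-like protein gene of the same setting, differed by 1.75 (adjusted p = 0.738) and Irf4 by 1.03. Like Ccl24, both Retnla and Chil3 were higher in Drosha-deleted replicates 1 and 2 than in replicate 3. The gene Stat6 itself was not called in any comparison. This list was chosen with earlier results of these samples known and is not independent support.

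Of 16 NF-kB and inflammatory genes, 15 were tested, with medians of −0.05 between the deletions, −0.02 with Drosha deleted and −0.03 with Dicer deleted against control. Cd14, a co-receptor for lipopolysaccharide, was called: it fell by 1.26 in Drosha-deleted against control cells (9.71, 9.57 and 9.18 against 10.63, 10.83 and 10.77, adjusted p = 0.030 in limma). Against control replicate 1 alone the difference was −1.15 with an adjusted p of 0.403, and the call held in 7 of 19 other ways of processing. No other gene of the lists was called, including those of the 10 lists of cell type markers. Among these, Ear1, an eosinophil ribonuclease gene, was 2.57 higher in Drosha-deleted than in Dicer-deleted cells (adjusted p = 0.371), and Flt3, a receptor of early progenitors and dendritic cells, was 0.91 higher (adjusted p = 0.209), both without overlap. The 5 eosinophil markers together had a median difference of −0.05, with 2 higher and 3 lower.

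**Figure D4:**
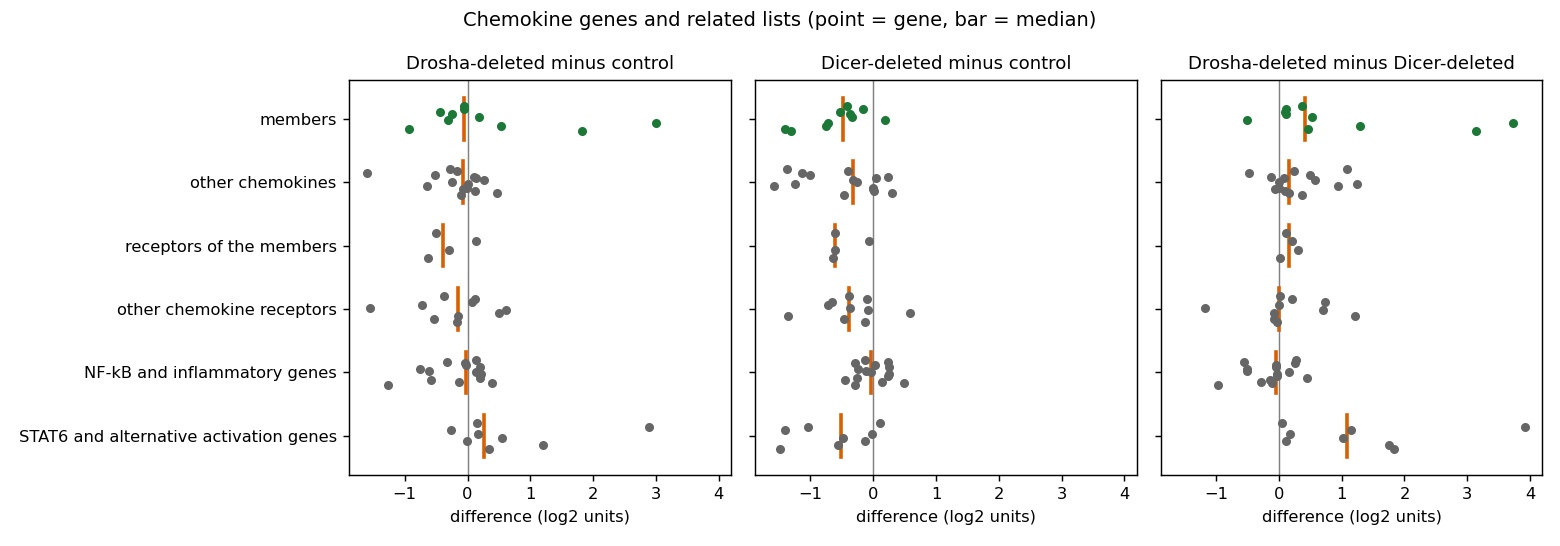
Differences (horizontal axis, log2 units) of the tested genes of 6 lists in 3 comparisons, with a point for each gene and a bar at the list's median. The medians of the chemokine genes (green) are 0.41 between the deletions, −0.05 with Drosha deleted and −0.48 with Dicer deleted against control.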

How the data were processed

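The deposited series table holds log2 values of 9 arrays of an Agilent mouse design (028005). They were made with limma, per the submitters' processing notes, with further steps not given in the sources used here. The scanner files deposited by the authors hold intensity values made with Feature Extraction 10.7.3.1, per the file headers. The 9 columns of the table had medians of 6.36 to 6.38 over the probes other than controls, so they share a scale between arrays.

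Control spots were left out and spots of a probe averaged. A probe entered the tests if, in 1 group or more, each of the 3 arrays showed over a share of 0.5 of its spots above background by the scanner's flag, and each gene had 1 probe, that with the highest mean. A group-means model was fitted over all 9 columns with limma 3.58.1 in R 4.3.3, with p-values adjusted by Benjamini-Hochberg over 23020 genes and a threshold of 0.05. The number of arrays limits the precision. Simulated data with 200 changed genes were used to test the code.

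The members and all gene lists were chosen with earlier results of these data known, and 1 gene of the receptor list is not reported here. All 10 genes were named in each comparison, of each other list up to 3 genes with the smallest adjusted p and any past the threshold, and the 5 genes most correlated with the average of the 10. Alternatives were the scanner values (log2 of the processed signal less each array's 75th percentile, with and without control replicate 2), a normexp background with an offset of 50, other filters and probe rules, a replicate block, the slide as a random block, fewer groups, each replicate left out, and, chosen after seeing the data, leaving out control replicates 2 and 3.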

Additional observations from a re-analysis of the deposited data

How the results depend on the processing

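Each of the 10 genes was recomputed in 19 other ways in the 3 comparisons. Of 190 values per comparison, 18 changed sign where Drosha-deleted cells were set against control, 11 where Dicer-deleted cells were, and 10 between the deletions. Ccl17 and Ccl22 kept their sign in all 3 comparisons under every alternative run, and Ccl24 in both comparisons of Drosha-deleted cells. Many alternatives could not change a difference, so kept signs say less than their number. Each of the 10 genes had 1 probe, so other filters and probe rules returned the same difference. The replicate block and the fits of only the compared groups did so too. Between the deletions, leaving out controls also left the difference as it was. The cause of each change below was not tested, except that fewer samples were used where a replicate was left out.

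The numbers of genes called were 39, 4 and 13 in the order Drosha-deleted against control, Dicer-deleted against control, and Drosha-deleted against Dicer-deleted. They were 7, 3 and 2 with the scanner signals, 10, 4 and 5 with these and no control replicate 2, and 0, 0 and 1 with the normexp background (2363 and 1779 genes at an unadjusted p below 0.05 beside the counts of 0). Without a filter they were 25, 2 and 10, with only the compared groups 5, 0 and 11 (4022 beside the 0), and without control replicates 2 and 3 they were 38, 21 and 11. Over each replicate left out they ranged from 4 to 7743, 0 to 7020 and 4 to 16, and 7743 and 7020 came without control replicate 1 (2935 to 3732 genes at an unadjusted p below 0.05 beside the counts of 0). Members called stayed at 0 except for Ccl17 in Dicer-deleted against control without control replicate 1, which made the range 0 to 1. In the fits without control replicate 1, Cxcl5 was also called against control in both deletions and Ackr1 in Dicer-deleted cells. With the slide as a random block the counts were 39, 4 and 11. The median of the 10 genes in Drosha-deleted against control, −0.05, was 0.40 with the scanner signals and 0.33 with normexp.

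With the replicate number as a replicate block the counts were 4, 0 (4533 at an unadjusted p below 0.05) and 5, no gene of the 10 was called, and Ccl17 between the deletions had an adjusted p of 0.424. Deviations from the group means correlated at −0.28 to 0.24 over 9 pairs of same-numbered samples, and at −0.29 to 0.28 over 18 pairs of differently numbered samples. Deviations from a mean of 3 samples are tied to each other, and control columns 2 and 3 stood apart. This check therefore cannot decide whether the numbers pair the samples.

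In Drosha-deleted against control, the scanner signals gave 0.40 for Ccl3, 0.0552 for Ccl6 and 0.39 for Ccl9, and −0.18 for Ccl4 when control replicate 2 was also left out. Normexp gave 0.32 for Ccl3, 0.00245 for Ccl6, 0.34 for Ccl9, 0.17 for Cxcl2 and 0.30 for Ccr1. Without control replicates 2 and 3, Ccl5 was 0.36 and Cxcl2 0.39. Over each replicate left out, Ccl3 ranged from −0.69 to 0.24, Ccl4 from −0.13 to 0.54, Ccl5 from −0.87 to 0.56, Ccl9 from −0.19 to 0.0707 and Cxcl2 from −0.31 to 0.31.

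In Dicer-deleted against control, the scanner signals gave 0.0322 for Ccl4, 0.0396 for Ccl6 and 0.30 for Ccl9, and −0.0360 for Ccl3 when control replicate 2 was also left out. Normexp gave 0.27 for Ccl9 and 0.26 for Ccr1. Without control replicates 2 and 3, Ccl5 was 0.24 and Cxcl2 0.0259. Over each replicate left out, Ccl4 ranged from −0.61 to 0.0404, Ccl5 from −0.73 to 0.0299, Ccl9 from −0.38 to 0.15 and Ccl24 from −1.50 to 0.71.

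Between the deletions the changes of sign came only with a replicate left out: Ccl2 ranged from −0.10 to 1.16, Ccl3 from −0.88 to 0.0462, Ccl5 from −0.51 to 0.92, Ccl6 from −0.43 to 0.55 and Ccl9 from −0.20 to 0.33. Cxcl2 and Ccl22 were limited by signals close to background.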
